A study of Mus musculus with 29 samples.

Results

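Small leucine-rich proteoglycans (SLRPs) are secreted proteins of the extracellular matrix (ECM) built around leucine-rich repeats, most of which carry glycosaminoglycan chains. The genes described here are the 10 family members Dcn, Lum, Bgn, Fmod, Kera, Ogn, Aspn, Prelp, Omd and Podn. They were chosen by their symbols, and all 10 were found among the 24770 gene symbols of the count table. RNA-seq was performed on brown adipose tissue (BAT) and on skeletal muscle (SkM, gastrocnemius) of male wild-type C57BL/6J mice. Control mice were sedentary and fed ad libitum, the CR group was on calorie restriction, the EX group ran on a treadmill with free access to food, and the CREX group had both interventions. The interventions began at 8 weeks of age and lasted 8 weeks, CR ended at 70% of the ad libitum food intake, and all tissue was taken after a short fast. There were 3 control, 4 CR, 4 EX and 4 CREX libraries of BAT and 4 control, 3 CR, 4 EX and 3 CREX libraries of SkM.

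SLRPs bind collagen fibrils and set the diameter and spacing of the fibrils, and several also bind growth factors such as TGF-beta. In adipose tissue and muscle they are made mainly by fibroblasts, in tendon by tenocytes. Class I holds decorin (Dcn), biglycan (Bgn) and asporin (Aspn). Class II holds lumican (Lum), fibromodulin (Fmod), keratocan (Kera), prolargin (Prelp) and osteomodulin (Omd). Class III includes osteoglycin (Ogn), and podocan (Podn) belongs to a noncanonical class.

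Several members are neighbours in the mouse genome (GRCm38, which is mm10). Dcn, Lum, Kera and the related Epyc lie within 202.4 kb on chromosome 10 (97479500 to 97681908). Aspn, Omd and Ogn lie within 80.1 kb on chromosome 13 (49544443 to 49624501). Prelp and Fmod lie within 138.0 kb on chromosome 1 (133910304 to 134048280), while Bgn is on chromosome X (73483601 to 73495936) and Podn on chromosome 4 (108014793 to 108031954).

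The promoter sequences of 4 members are shown, chosen because results below turn on them and members differed in direction. Ogn was downregulated and Podn upregulated by CR in BAT, and Fmod and Kera were downregulated in CREX compared to EX in SkM. Each sequence runs 5′ to 3′ from 250 bases before to 50 bases after an annotated start of the gene (RefSeq, GRCm38.p6). Capitals mark matches, on either strand, to any of 4 short motifs. These were the TATA box, spelled TATAAA, and the GC box recognised by Sp1, spelled GGGCGG. The others were an E-box, spelled CATCTG, and the glucocorticoid receptor half-site, spelled TGTTCT. The table held promoters of 8 members in 9 windows.
Ogn, chr13:49607765-49608064, plus strand: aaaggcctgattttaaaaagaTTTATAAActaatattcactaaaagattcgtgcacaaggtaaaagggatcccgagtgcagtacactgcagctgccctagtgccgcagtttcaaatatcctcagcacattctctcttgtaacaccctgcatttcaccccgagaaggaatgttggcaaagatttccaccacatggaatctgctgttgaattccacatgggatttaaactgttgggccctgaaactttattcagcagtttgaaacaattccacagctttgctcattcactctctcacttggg
Podn, chr4:108031905-108032204, minus strand: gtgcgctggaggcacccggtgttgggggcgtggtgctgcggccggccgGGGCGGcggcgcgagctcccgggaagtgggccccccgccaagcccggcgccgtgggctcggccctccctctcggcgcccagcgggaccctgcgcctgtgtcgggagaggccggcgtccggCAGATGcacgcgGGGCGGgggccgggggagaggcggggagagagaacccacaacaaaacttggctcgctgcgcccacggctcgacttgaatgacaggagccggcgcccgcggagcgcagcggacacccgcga
Fmod, chr1:134037004-134037303, plus strand: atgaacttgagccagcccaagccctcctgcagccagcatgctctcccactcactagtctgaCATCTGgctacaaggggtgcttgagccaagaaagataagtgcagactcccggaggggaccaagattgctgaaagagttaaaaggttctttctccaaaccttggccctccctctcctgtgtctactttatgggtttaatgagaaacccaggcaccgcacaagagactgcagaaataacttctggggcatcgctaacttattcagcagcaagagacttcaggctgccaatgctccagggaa
Kera, chr10:97606955-97607254, plus strand: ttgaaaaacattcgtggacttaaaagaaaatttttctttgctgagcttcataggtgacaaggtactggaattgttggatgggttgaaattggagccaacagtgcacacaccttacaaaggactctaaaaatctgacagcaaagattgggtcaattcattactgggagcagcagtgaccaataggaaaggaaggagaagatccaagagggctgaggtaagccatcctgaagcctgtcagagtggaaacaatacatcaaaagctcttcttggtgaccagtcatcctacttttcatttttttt

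The Podn window had a GC content of 77.0% and held 2 GC boxes and 1 E-box. Its GC content was above that of 97.6% of 32851 mouse promoter windows, a set that leaves out 1 chromosome. The Ogn window had a GC content of 42.3%, above that of 14.9% of the windows, and its TATA box matches at -229 and -227 overlap on opposite strands. Fmod (51% GC) held 1 E-box match at -189, and Kera (41.0% GC) held no match to the letters searched. The Kera window begins at 97606955, while the gene as annotated begins at 97606962. Nearly all of that window thus lies inside the gene, and the sequence further upstream was not searched. A second Podn start, at chr4:108030937-108031236 on the minus strand and not printed, had a GC content of 63.0% and no match. Of these 32851 windows, 13.62% held the TATA box, 35.66% the GC box, 17.15% the E-box and 18.97% the half-site. A match describes the letters only.

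The libraries held 21047242 to 24919377 counts in BAT and 23050918 to 23425284 in SkM. Levels are given as CPM, the counts scaled to a common library size with TMM factors found within each tissue. CPM of BAT and SkM are thus not on a shared scale, while the fits between tissues used factors of all their libraries. A level of 3 counts, taken as the smallest detectable, was 0.120 to 0.143 CPM for BAT libraries and 0.128 to 0.130 CPM for those of SkM, which covers counting error only. The tissue labels were matched by their markers, since Ucp1, the uncoupling protein of brown fat, ran from 1373 to 4750 CPM in BAT libraries and did not exceed 0.138 CPM in SkM. Muscle fibre markers varied between BAT libraries, from 2.93 to 5794 CPM summed over 10 genes. The EX replicate 3 library of BAT stood apart from the other 14, with a summed level of 7 tendon markers of 66.5 CPM against 0.219 to 3.14 CPM. DEGs are genes with an edgeR Benjamini-Hochberg adjusted p under 0.05, over all genes tested, and a fold change above 1.5. The p-values measure the spread between libraries, since the sample records number the libraries without naming the animals.

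To describe which SLRPs each tissue expressed, levels per kb of the longest coding transcript were compared in control mice. In BAT, Prelp (83.7 ± 20.5 CPM per kb, SD, n = 3) and Dcn (70.5 ± 4.34) were the most abundant, with overlapping ranges. Bgn followed at 14.9 ± 1.47 CPM per kb, and then Lum, Aspn and Ogn between 6.64 and 5.16 CPM per kb, whose neighbours in this order overlapped. Podn stood at 3.51 ± 0.251, Fmod at 0.183 ± 0.0326 and Omd at 0.106 ± 0.0314 CPM per kb. Kera, a proteoglycan of the cornea, had 0 counts in all 15 BAT libraries, which allows up to 0.143 CPM.

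**Figure D1:**
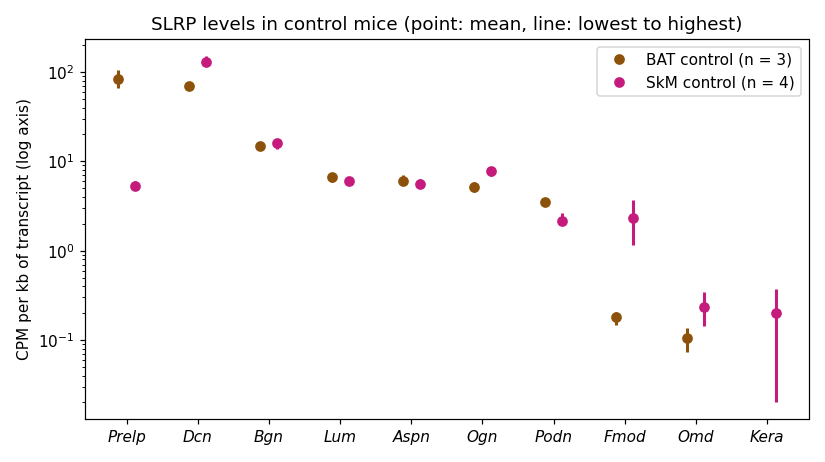
Levels of the SLRP genes in control mice, in CPM per kb of transcript on a log axis, with BAT (n = 3) and SkM (n = 4) side by side and lines from the lowest to the highest library. The CPM of each tissue were scaled on their own. Prelp stands at 83.7 CPM per kb in BAT and 5.32 in SkM, Fmod is higher in SkM, and Kera, at 0 in BAT, is drawn for SkM alone.

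In SkM, Dcn stood alone at the top with 130 ± 14.7 CPM per kb (SD, n = 4), followed by Bgn at 16.3 ± 1.73 and Ogn at 7.87 ± 0.745. Lum, Aspn and Prelp lay between 5.96 and 5.32 CPM per kb with overlapping neighbours. Fmod (2.35 ± 1.14) and Podn (2.17 ± 0.336) overlapped, as did Omd (0.234 ± 0.0840) and Kera (0.203 ± 0.161). Dcn made up 65.2% ± 2.51 of the summed CPM of the family in SkM and 24.2% ± 2.50 in BAT, whereas Prelp made up 5.52% ± 0.623 in SkM and 57.9% ± 4.40 in BAT.

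Compared to BAT, SkM of control mice had higher Dcn, Fmod, Ogn and Omd and lower Prelp, 5 of the 9 members tested. Of all genes tested in this comparison, 60.0% were called, so the share among the members was close to that of all genes. Prelp, a heparin-binding SLRP that anchors basement membranes to connective tissue, was at 385, 283 and 241 CPM in BAT and at 20.2, 17.9, 17.2 and 21.6 CPM in SkM. The difference was -3.70 on the log2 scale (SE 0.16, edgeR adjusted p = 2.17e-09). Fmod, which steers the assembly of collagen fibrils in tendon, was at 0.612, 0.644 and 0.454 CPM in BAT and at 3.63, 5.17, 11.4 and 9.15 CPM in SkM (log2 fold change 3.95, SE 0.51, adjusted p = 0.000142). In neither gene did the tissues overlap. Dcn differed by 1.16 (SE 0.11), Ogn by 0.88 (SE 0.12) and Omd by 1.41 (SE 0.41) on the log2 scale. Lum and Aspn were not called (adjusted p = 0.331 and 0.154), and Bgn (0.40) and Podn (-0.42) passed the adjusted p but not the fold change minimum. As the levels come from bulk tissue, fewer cells of a type and less RNA per cell cannot be told apart, here and in each comparison below. Tendon markers summed to 36.9 to 51.2 CPM in the SkM controls and 0.362 to 0.784 CPM in the BAT controls, and all 3 of those tested were higher in SkM. Their part in the differences was not tested. The comparisons between tissues treat the libraries of BAT and SkM as independent, since the sample records do not say whether they share mice.

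To examine the effect of CR in BAT, the CR group was compared to the control group. Lum and Ogn were downregulated and Podn was upregulated, 3 of 8 members tested, while 10.7% of all genes were called. The median log2 fold change of the members was -0.46, against 0.01 over all genes, and 7 of the 8 had a negative value. Kera and Omd (2 to 11 counts per BAT library) did not pass the filter on low counts.

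Lum, which binds collagen and regulates fibril growth, was at 14.5, 16.5 and 17.8 CPM in the control and at 11.4, 7.66, 9.11 and 10.4 CPM in the CR libraries of BAT. All CR libraries were below all controls (log2 fold change -0.75, SE 0.13, edgeR adjusted p = 0.0034). Ogn, also known as mimecan, was at 14.9, 13.3 and 11.5 CPM in the control and at 7.68, 7.90, 7.54 and 7.74 CPM in the CR group. Its CR libraries lay close together, and the groups did not overlap (log2 fold change -0.78, SE 0.10, adjusted p = 0.00084 by edgeR). Podn, named for its discovery in podocytes, went the other way, with 10.2, 11.7 and 11.5 CPM in the control and 18.5, 18.5, 18.7 and 17.8 CPM in the CR group. The groups were apart by more than their own spread (log2 fold change 0.72, SE 0.08, edgeR adjusted p = 0.000397). Lum and Podn were called under all 16 alternatives of this comparison, and Ogn under 15, the exception being the edgeR fit on all 4 groups of the tissue.

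Prelp was at 385, 283 and 241 CPM in the control and at 164, 120, 233 and 171 CPM in the CR group of BAT. The groups did not overlap, but the highest CR library came near the lowest control (log2 fold change -0.81, SE 0.25, edgeR adjusted p = 0.0714). Both controls and CR mice varied widely, and DESeq2 on the same libraries called Prelp, for 4 called members. Dcn, which binds collagen fibrils and TGF-beta, was at 133, 121 and 119 CPM in the control and at 93.7, 119, 90.5 and 86.6 CPM in the CR group, and the value of CR replicate 2 overlapped the controls. Its log2 fold change of -0.35 (SE 0.11, edgeR adjusted p = 0.0458) passed the adjusted p but not the fold change minimum. Bgn (-0.30, adjusted p = 0.195), Aspn (-0.14, adjusted p = 0.437) and Fmod (-0.58, adjusted p = 0.272) were not called, and their groups overlapped.

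**Figure D2:**
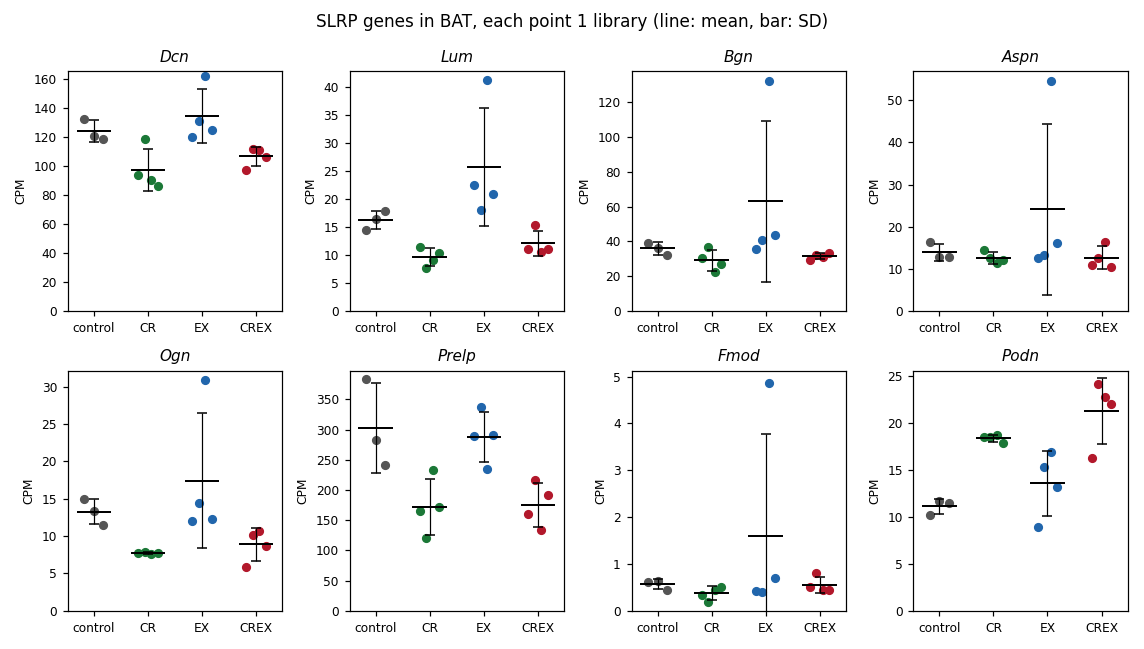
CPM of 8 SLRP genes in each BAT library of the control (n = 3), CR, EX and CREX groups (n = 4 each), with the mean as a line and the SD as a bar, on axes starting at 0. Lum, Ogn and Prelp are lower and Podn is higher in both groups on CR, and 1 EX library stands far above the rest for Bgn, Aspn, Fmod and Ogn (132, 54.5, 4.86 and 30.9 CPM).

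The same question was asked in trained mice by comparing the CREX group to the EX group. In BAT, Prelp was downregulated, 1 of 8 members tested, while 4.48% of all genes were called. Prelp was at 289, 337, 236 and 291 CPM in the EX group and at 160, 216, 133 and 192 CPM in the CREX group (log2 fold change -0.72, SE 0.15, edgeR adjusted p = 0.0249). No CREX library reached the lowest EX library, although leaving out single libraries moved the adjusted p as far as 0.0785. Lum was at 22.4, 18.1, 41.2 and 20.8 CPM in the EX group and at 11.1, 15.4, 10.6 and 11.1 CPM in the CREX group. The groups did not overlap (log2 fold change -1.10, SE 0.28), but Lum missed the threshold at an edgeR adjusted p of 0.0538. Podn was at 8.96, 15.3, 16.9 and 13.1 CPM in the EX and at 16.2, 24.2, 22.7 and 22.0 CPM in the CREX group, with EX replicate 3 just above the lowest CREX library (log2 fold change 0.64, SE 0.20, adjusted p = 0.0865). Ogn (-0.98), Bgn (-1.02) and Dcn (-0.34) did not overlap between the groups and were not called (adjusted p = 0.147, 0.226 and 0.0656 by edgeR). Fmod (-1.56, adjusted p = 0.316) and Aspn (-0.95, adjusted p = 0.33) overlapped.

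The EX replicate 3 library bore on these values. It was above all the other 14 BAT libraries for Dcn, Lum, Bgn, Fmod, Ogn, Aspn and Omd, but not for Prelp or Podn. Over the median of the other EX libraries, Fmod was 11.7-fold, Aspn 4.11-fold, Bgn 3.24-fold and Ogn 2.50-fold higher in it. In the same library Thbs4, a tendon and muscle ECM protein, was at 59.9 CPM against 0.0438 to 2.35 CPM in the other BAT libraries, and Col1a1 was at 350 CPM against 11.04 to 39.0 CPM. Without this library, Lum (-0.76) and Prelp (-0.80) were called in CREX against EX, and Fmod turned to 0.10. Bgn then stood at -0.35, Ogn at -0.54 and Aspn at -0.16, none of them called. What sets this library apart was not tested.

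Across both CR contrasts of BAT, the main effect of CR in 1 edgeR fit over the 4 groups covered 4 of 8 members, where 11.8% of all genes were called. Lum (-0.93, SE 0.17, adjusted p = 0.0012), Ogn (-0.88, SE 0.21, adjusted p = 0.00609) and Prelp (-0.77, SE 0.15, adjusted p = 0.0022) were downregulated, and Podn was upregulated (0.68, SE 0.12, adjusted p = 0.000595). All 4 were called in each of the 19 alternatives, including each library left out. Dcn (-0.34, adjusted p = 0.00421) again passed the adjusted p only, and Bgn (-0.66, adjusted p = 0.0782) was not called. Summed over the 10 members, the family stood at 518 ± 86.3 CPM in the control (SD, n = 3), 348 ± 31.4 in the CR, 569 ± 79.0 in the EX and 369 ± 43.5 CPM in the CREX group (n = 4 each).

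Markers of several cell types were also lower under CR in BAT. Of 9 fibroblast markers tested, 3 were downregulated in CR against control (Col1a1, Col3a1 and Dpt), and the summed level of the list of 10 was 166 to 234 CPM in the control and 83.8 to 114 CPM in the CR group, with Tcf21 at 0 in all of these libraries. In CREX against EX the sums were 103 to 113 CPM in the CREX group and 189 to 252 CPM in the EX group, apart from EX replicate 3 at 935 CPM, and 1 of the 9 markers was downregulated (Dpt). Of 6 smooth muscle and pericyte markers 2 were downregulated in CR against control and 1 in CREX against EX, and of 6 endothelial markers 1 and 0 (edgeR, with 3 of the latter at an unadjusted p under 0.05). Brown adipocyte markers summed to 7589 to 8748 CPM in the control and 5354 to 6161 CPM in the CR group. Their mean log2(CPM + 1), which weights the genes equally, overlapped (8.48 to 8.91 and 8.04 to 8.51). Of the 8 markers, 7 had a negative value and 2 were downregulated, Ucp1 (-1.02) and Plin1 (-0.67). For the main effect of CR, Ucp1 (-1.01) and Ppargc1a (-0.82) were downregulated and Elovl3 was upregulated (0.89). Schwann cell markers summed to 75.3 to 104 and 42.1 to 56.0 CPM, with S100b (-1.42) the 1 of 5 that was downregulated, and of 6 macrophage markers Mrc1 was (-0.60). The summed level of the mesothelial markers went the other way, at 2.19 to 3.66 CPM in the control and 6.55 to 8.65 CPM in the CR group. Of the 6 genes, 3 were at 0 in all controls and 4 in all CR libraries. Lrrn4, the 1 tested, was upregulated (1.38), so the higher sum does not show a shift of the whole list. The paper's deconvolution, a different measure built on cell-type-specific expression from single-cell data, estimated a lower mesothelial cell proportion in the CR group. The part of these cell types in the SLRP values was not tested. With muscle fibre markers as a covariate, 4 members were called in CR against control, where 1540 of all 13323 genes tested were called. In CREX against EX this fit called 1 member, and 679 of all 13251 genes.

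**Figure D3:**
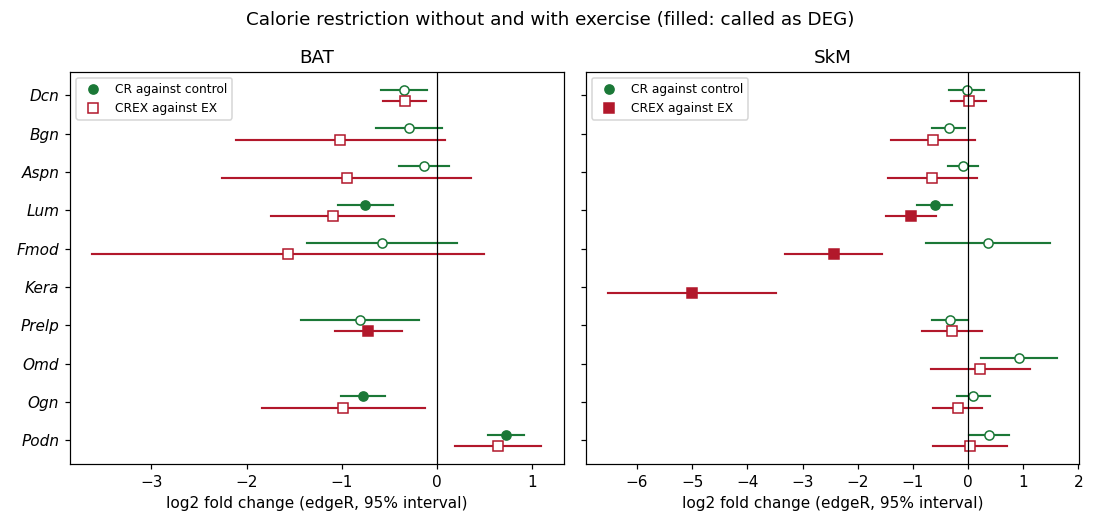
Log2 fold changes of the SLRP genes (edgeR, with 95% intervals) for CR against control (circles) and CREX against EX (squares) in BAT and in SkM, filled where called as DEG. In BAT 7 of 8 members lie below 0 and Podn above 0 in both contrasts, and in SkM Fmod and Kera reach -2.43 and -5.01 in CREX against EX. Kera was not tested in BAT or in CR against control in SkM, nor Omd in BAT.

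The same contrasts were then examined in SkM. In CR against control, Lum was downregulated, 1 of 9 members tested, while 9.60% of all genes were called, and the median of the members was -0.03 against 0.01 over all genes. Lum was at 16.2, 13.4, 14.5 and 14.3 CPM in the control and at 7.37, 10.5 and 10.8 CPM in the CR group. All 3 CR libraries were lower than all controls (log2 fold change -0.60, SE 0.14, edgeR adjusted p = 0.0199), but the call was lost without any of 3 libraries. Without control replicate 3 the adjusted p was 0.0551, and without CR replicate 1 (-0.46) or control replicate 1 (-0.55) the fold change of Lum fell under the minimum. Omd, a mineral-binding SLRP of bone, was at 0.782, 0.326, 0.498 and 0.499 CPM in the control and at 1.10, 0.909 and 0.993 CPM in the CR group. The groups did not overlap, but with 7 to 26 counts per library the difference was not called (log2 fold change 0.92, SE 0.31, adjusted p = 0.0763 by edgeR), although it was without control replicate 1 (adjusted p = 0.0372). Dcn (-0.03), Ogn (0.10), Aspn (-0.09) and Fmod (0.36) had adjusted p from 0.663 to 0.928. Bgn (-0.35, adjusted p = 0.105), Prelp (-0.33, adjusted p = 0.174) and Podn (0.38, adjusted p = 0.154) were not called. For Dcn, the most abundant member, the 95% interval ran from -0.34 to 0.29.

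In CREX against EX of SkM, Lum, Fmod and Kera were downregulated, 3 of 10 members tested, while 8.87% of all genes were called. All 3 are of class II, whose other members Prelp (-0.29) and Omd (0.22) were not called. The median of the members was -0.46, against 0.00 over all genes. Lum was at 20.8, 18.4, 12.5 and 15.7 CPM in the EX group and at 10.1, 6.61 and 7.97 CPM in the CREX group. No CREX library reached the lowest EX library (log2 fold change -1.03, SE 0.20, edgeR adjusted p = 0.0144). Fmod was at 27.1, 11.8, 24.5 and 16.4 CPM in the EX group and at 5.33, 2.50 and 3.25 CPM in the CREX group. The groups were apart (log2 fold change -2.43, SE 0.38, adjusted p = 0.0116 by edgeR), and the EX libraries were also above all 4 controls (3.63 to 11.4 CPM). Kera was at 2.17, 0.9495, 1.90 and 0.885 CPM in the EX group and at 0.0832, 0 and 0.0397 CPM in the CREX group. These are 48, 21, 42 and 19 counts against 2, 0 and 1, so all CREX libraries were at or under the 3 count level. With counts pooled over each group (130 and 3), the ratio of EX to CREX was 36.3, with an exact 95% counting interval from 12.2 to 178. This interval covers counting error only, not the spread between libraries. The fitted value was -5.01 (SE 0.68, edgeR adjusted p = 0.00536), whose size depends on the prior count. Lum was not called without CREX replicate 2, CREX replicate 3 or EX replicate 2 (edgeR adjusted p of 0.0583, 0.050 and 0.0511), nor Fmod without CREX replicate 3 (adjusted p = 0.0525).

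The other 7 members were not called in CREX against EX of SkM. Bgn (-0.64, adjusted p = 0.218) and Aspn (-0.65, adjusted p = 0.235) overlapped between the groups, with CREX replicate 1 at 44.8 and 14.9 CPM and the other CREX libraries at 18.4 to 24.5 and 5.12 to 6.49 CPM. Without that library both were called by edgeR, for 5 called members. Dcn (0.01), Ogn (-0.19), Prelp (-0.29), Omd (0.22) and Podn (0.03) had adjusted p from 0.438 to 0.967. For Dcn the 95% interval ran from -0.31 to 0.33, so a change beyond the fold change minimum lay outside it.

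**Figure D4:**
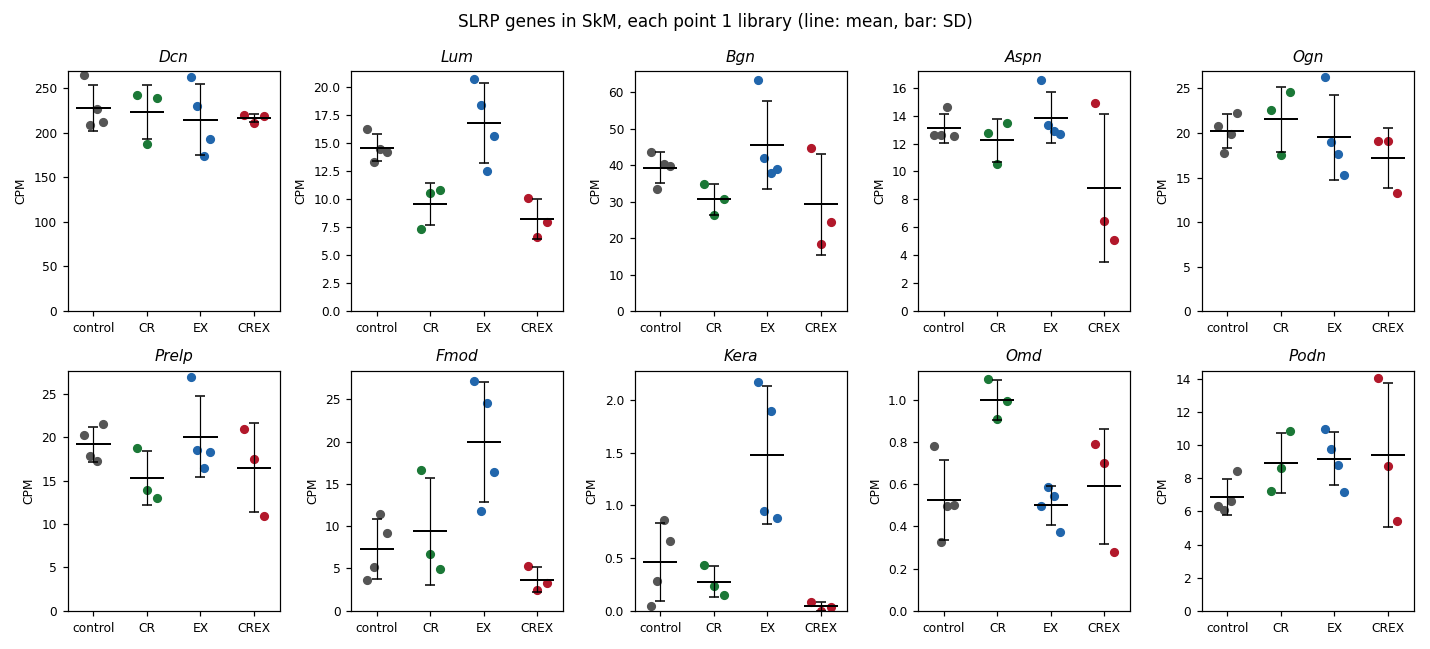
CPM of the 10 SLRP genes in each SkM library of the control (n = 4), CR (n = 3), EX (n = 4) and CREX (n = 3) groups, with the mean as a line and the SD as a bar, on axes starting at 0. Lum is lower in both groups on CR, Fmod and Kera are highest in the EX group (up to 27.1 and 2.17 CPM) and lowest in the CREX group, and the Dcn values of the groups overlap.

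Tendon genes moved beside Fmod and Kera in SkM. Of 5 tendon markers tested in CREX against EX, Tnmd (-2.26), Thbs4 (-1.16) and Cilp2 (-1.99) were downregulated and Scx (1.06), a transcription factor of tendon, was upregulated (edgeR adjusted p = 0.0209, 0.0256, 0.0454 and 0.0404). The summed level of the 7 markers was 45.6 to 62.7 CPM in the EX and 23.0 to 35.7 CPM in the CREX group. It was 36.9 to 51.2 CPM in the control and 28.6 to 36.2 CPM in the CR group, with no marker at 0 in a whole group. Their mean log2(CPM + 1), which weights the genes equally, overlapped between control (1.47 to 1.63) and CR (1.37 to 1.80). In CR against control, 3 of 4 markers tested had a positive value, and Thbs4 (-0.81) was downregulated. Chad, a SLRP-related gene of cartilage and tendon, was downregulated too (-3.01, adjusted p = 0.0118). With the mean log2 CPM of the tendon markers as a covariate, Lum (-0.83), Fmod (-1.06) and Kera (-3.40) were no longer called, and neither was any of the 13112 genes tested (1163 without the covariate). The EX libraries (scores of 0.46 to 1.29) and CREX libraries (-0.27 to 0.17) do not overlap in this score, so score and group cannot be told apart. Of 9 fibroblast markers tested, 4 were downregulated in this contrast and the same 4 in CR against control, Col1a1 and Col3a1 among them. Both of these are also counted with the collagens below. All 6 endothelial markers had negative values in both contrasts, with 2 downregulated in CREX against EX and 3 in CR against control, among them Cdh5 (-0.96 and -0.66). Of the muscle fibre markers, Actn3 was upregulated in both (1.501 and 1.302). The part of these cells in the SLRP values of SkM was not tested.

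The main effect of CR in SkM covered Lum (-0.82, SE 0.13, edgeR adjusted p = 0.000231), Kera (-2.88, SE 0.56, adjusted p = 0.00143) and Fmod (-1.04, SE 0.36, adjusted p = 0.0418), 3 of 10 members, where 14.1% of all genes were called. Lum and Kera were called under all 18 alternatives, and Fmod under 8 of them. This main effect averages CR without and with EX. Fmod was at 0.36 in CR against control, where it was not called, and at -2.43 in CREX against EX. Of these 2 contrasts, Kera was tested only in CREX against EX (-5.01). Bgn (-0.50, adjusted p = 0.0414) passed the adjusted p but not the fold change minimum. Lum was thus called for the main effect of CR in both tissues.

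EX alone called no member. In EX against control, edgeR called 0 of 8 members in BAT (0% of all genes), with 0 at an unadjusted p under 0.05, and 0 of 10 in SkM (0.0775% of all genes), with 3 at an unadjusted p under 0.05. DESeq2 called 0 in both. The values ran from -0.06 (Prelp) to 1.51 (Fmod) in BAT, where Fmod turned to -0.15 without EX replicate 3, and from -0.09 (Dcn) to 1.65 (Kera) in SkM. Fmod (1.44, SE 0.41) and Kera (1.65, SE 0.52) did not overlap between EX and control mice in SkM, each with an edgeR adjusted p of 0.452. In CREX against CR, edgeR and DESeq2 called 0 of 8 members in BAT (0.00763% of all genes) and 0 of 9 in SkM (0% of all genes), with 0 and 1 at an unadjusted p under 0.05. The main effect of EX called 0 members by both tools (0.00718% of all genes in BAT and 0.0294% in SkM), with 2 and 0 at an unadjusted p under 0.05.

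Whether CR acted differently with and without EX was tested by the interaction. By edgeR and by DESeq2 it called 0 members in BAT and 0 in SkM (0% of all genes in each tissue by edgeR), with 0 and 2 members at an unadjusted p under 0.05. Those in SkM were Fmod (-2.78, SE 0.71) and Kera (-4.23, SE 1.18), each with an adjusted p of 0.941.

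Between tissues, Ogn differed in its response to CR. Its log2 fold change was -0.78 in BAT and 0.10 in SkM, where Ogn stood at 20.8, 17.7, 19.9 and 22.3 CPM in the control and at 22.6, 17.5 and 24.6 CPM in the CR group. The difference of SkM and BAT was 0.87 (SE 0.18, edgeR adjusted p = 0.00779), called under all 18 alternatives, and Ogn was 1 of 9 members tested, while 7.58% of all genes were called. Podn, with 0.72 in BAT and 0.38 in SkM, did not differ beyond the threshold (difference -0.35, SE 0.19, adjusted p = 0.288). For CREX against EX, 0 of 9 members differed between tissues by edgeR and by DESeq2 (5.58% of all genes by edgeR), with 0 at an unadjusted p under 0.05.

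Genes that act with the SLRPs were examined by lists. Of the collagens that SLRPs bind, 10 were tested, and in CR against control 8 were downregulated in BAT and 8 in SkM, among them Col6a2 (-1.09 and -1.40) and Col1a1 (-1.29 and -2.33). The list medians were -1.03 in both tissues, against 0.01 over all genes. In CREX against EX, 1 collagen was downregulated in BAT (Col6a2, -1.34) and 6 in SkM, with list medians of -1.57 and -0.87. The BAT median includes EX replicate 3, where Col1a1 was at 350 CPM against 32.65 to 39.0 CPM in the other EX libraries. A median without that library is not given. Among proteases that cut SLRPs, 6 of 8 were downregulated in CR against control of BAT, including Mmp14 (-1.44), Mmp2 (-0.79) and Adamts1 (-1.23), and 2 of 5 in SkM (Mmp2, -0.83, and Adamts1, -0.92). In CREX against EX, 1 of 7 was downregulated in BAT and 3 of 5 in SkM.

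Of the enzymes that build glycosaminoglycan chains, 23 were tested in BAT and 25 in SkM. In CR against control, 2 of 23 were downregulated in BAT, Chst11 (-1.54), a chondroitin sulfotransferase, and B3galt6 (-1.22), which adds to the linker of the chains, and 2 of 25 in SkM, Fam20b (-0.83) and Chst15 (-0.80). These shares were under those of all genes called (10.7% and 9.60%). Chst15, another chondroitin sulfotransferase, was upregulated in CREX against EX of BAT (0.75) and downregulated in that of SkM (-1.20), and the difference of the tissues was called as well (-1.95). Of the growth factors and receptors that SLRPs bind, 0 of 18 were called in either CR contrast of BAT by edgeR, with 8 and 4 at an unadjusted p under 0.05. In SkM, Tgfbr3 was upregulated in CR against control (0.73) and in CREX against EX (0.80), Tgfbr1 (0.67) and Egfr (1.24) in the latter, and Kdr was downregulated in the former (-1.27). The 8 other SLRP family genes had 3 tested members in BAT, of which 0 were called by edgeR in either CR contrast, with 0 and 1 at an unadjusted p under 0.05.

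Pairs of members were also compared across the libraries of each group. On deviations of log2(CPM + 1) from the group means, Pearson's r was above 0 for 40 of 45 pairs of members in SkM (median 0.46, 14 libraries), with the value for Fmod and Kera at 0.85. In BAT it was above 0 for 21 of 28 pairs (median 0.60, 15 libraries), but for 18 of 28 pairs, with a median of 0.18, without EX replicate 3. These libraries share their mice and their depth among the genes, so the values are descriptions. The share over pairs of other genes is not given, so these values do not mark a trait of the members. The genes most like the mean of the members were Postn (r = 0.97) and Col1a2 (r = 0.96) in BAT over 15 libraries, and Nox4 (r = 0.92) and Postn (r = 0.91) in SkM over 14 libraries. These values include the differences between groups, and on deviations from the group means they were 0.95 and 0.93 in BAT and 0.92 and 0.85 in SkM. Without EX replicate 3 of BAT, a choice made after seeing the data, Tmem44 and Cav2 (both r = 0.96) came first.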

How the data were processed

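The authors trimmed the reads with trim-galore, mapped them to mm10 with STAR (version 2.7.10a) and quantified genes with RSEM (version 1.2.28 in the submitters' processing notes, another version in the paper). The deposited values are expected counts per gene symbol, not normalized, and 6.11% of the values were not whole. The annotation behind the counting, and whether strand was used, are not given in the sources used here. Of the 24770 symbols, 27 had become dates and 2 were duplicated, and none of these is named.

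Expected counts were rounded and tested with edgeR 4.0.16 (R 4.3.3, robust quasi-likelihood, TMM, filterByExpr), each pair of groups on its own libraries, with Benjamini-Hochberg adjustment over all genes. A gene was called where its adjusted p was under 0.05 and its fold change over 1.5, except for the interaction and the differences between tissues, which had no fold change minimum. SE is the log2 fold change divided by the square root of F. The fits were also run on simulated data, for CR against control of BAT and CREX against EX of SkM. The outcome is not given here, and no result rests on it. Alternatives were DESeq2 1.42.0, fits on all groups, RLE, other filters, no fold change minimum, a replicate block, marker covariates and each library left out. Members and lists were chosen with earlier results of these data known. All 10 members are named, and from every other list at most 4 genes, those of smallest p in a discussed comparison, or its most abundant markers. Likeness was Pearson's r with the mean standardized log2 CPM of the members that passed the filter, over genes of at least 1 CPM. Sequences and coordinates come from RefSeq (GRCm38.p6).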

Additional observations from a re-analysis of the deposited data

Results flagged for a closer look

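A single library stood far from the other 3 of its group, by Dixon's criterion at 95%, in 8 of the 47 member and group combinations with 4 libraries, and chance alone flags about 1 in 20. Of these, 4 were in EX replicate 3 of BAT, for Bgn (132 CPM), Fmod (4.86 CPM), Ogn (30.9 CPM) and Aspn (54.5 CPM). EX replicate 1 of SkM stood out for Bgn (63.5 CPM) and Aspn (16.6 CPM), control replicate 3 of SkM for Aspn (14.6 CPM), and CREX replicate 2 of BAT for Lum (15.4 CPM).

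Ogn differed between the tissues in its response to CR, with a difference of the log2 fold changes of 0.87 by edgeR's test of the difference, and its fold changes of both tissues stand in the report.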

How the results depend on the processing

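Of 289 counts of called members under an alternative, 270 stayed within 1.5 times the reported count. For CREX against EX of BAT, with 1 member called, DESeq2 called 4 on the same libraries and 5 on all groups, edgeR on all groups called 4, the filter of at least 10 counts in every library left 2, and the replicate block gave 3. Leaving out 1 library gave 0 to 2 (0 without EX replicate 1, 2 or 4 or CREX replicate 1 or 4, and 2 without EX replicate 3). For the same contrast of SkM, with 3 called, the tendon marker covariate left 0 and single libraries left out gave 1 (without CREX replicate 3) to 5 (without CREX replicate 1). With 1 library left out, the count ran from 0 to 1 for CR against control of SkM (0 without CR replicate 1 or control replicate 3), from 2 to 5 for the main effect of CR in SkM (5 without CREX replicate 1), from 0 to 1 for the interaction in SkM (1, Aspn, without CREX replicate 1) and from 0 to 1 for the difference between tissues in CREX against EX (1, Fmod, without BAT EX replicate 3). The causes were not tested. The share of all genes called under most alternatives is not given, so counts of members called under them do not mark a trait of the members.

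For the 63 member values reported, 998 values were computed under alternatives, of which 924 kept direction and call, 26 lost a call, 26 gained one and 22 changed sign. Neither fit called a value that changed sign. In CREX against EX of SkM, Dcn was -0.0006015 with at least 10 counts in every library and -0.0186 with the replicate block, and Podn was -0.16 with the replicate block. With the tendon covariate, Bgn was 0.0247, Ogn 0.0813, Omd -0.443 and Podn -0.0110. With libraries left out, Dcn ran from -0.0777 to 0.12, Omd from -0.0451 to 0.56 and Podn from -0.38 to 0.31. In CR against control of SkM, Dcn ran from -0.10 to 0.0841, Fmod from -0.36 (without CR replicate 1) to 0.67, Ogn from -0.00863 to 0.23 and Aspn from -0.17 to 0.00684. Fmod ran from -1.87 to 0.10 (without EX replicate 3) for CREX against EX of BAT. For EX against control of BAT, Fmod ran from -0.15 (without EX replicate 3) to 1.83 and Prelp from -0.21 to 0.15 with libraries left out. A further 110 sign changes were among member values not reported singly.

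The replicate block was fitted although same-numbered libraries did not deviate together in every pair (correlations from -0.581 to 0.524 over the 8 comparisons of 2 groups), so the numbers were not taken to pair them. It gave 3 called members in CR against control of BAT and 4 in CREX against EX of SkM. With 3 or 4 libraries a group, and with 0 to 48 counts for Kera and 2 to 26 for Omd per library, depth limits what can be said of these 2 genes.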
